A study of Mus musculus with 12 samples.

Results

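The interferon response genes examined here were 34 listed mouse genes, comprising 9 transcriptional regulators, 3 genes of the interferon ligand and its receptor, 2 RNA sensors, 16 antiviral effectors and 4 feedback or checkpoint genes. They were taken as a named list by a rule that uses no measured value, and 32 of them are among the 21883 protein-coding genes of the reference. FRA-1 binding was read in a window that held the RefSeq gene body (GRCm38.p6) and 20 kb on each side. Of 300608 regions with a FRA-1 peak in any sample, 270 lay in these windows. Chromatin immunoprecipitation sequencing (ChIP-seq), which maps the DNA bound by a factor, had been carried out for FRA-1 on peritoneal macrophages of 8-week-old mice that were left unstimulated, given lipopolysaccharide (LPS) for 1 h, or given apoptotic cells (AC) for 1 h at a ratio of 1 to 5, with 3 replicates per condition. All groups were adherent cells kept after overnight culture, and no group lacking FRA-1 was among them. The labels disagree on some conditions, since the series design gives plain lavage, C57Bl/6 mice and 10 µg/mL LPS, whereas the sample protocols give macrophages elicited with thioglycollate for 72 h, a 129/C57Bl6 background and 1 µg/mL LPS. Replicates are numbered by their order in the deposited tables, which name no mouse.

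Interferons are cytokines secreted upon detection of microbes. Type I interferon binds the receptor chains encoded by Ifnar1 and Ifnar2, and a complex that holds STAT2 and IRF9 then binds interferon-stimulated response elements (ISRE) to switch on antiviral genes. In macrophages, LPS engages TLR4 and activates IRF3, which drives Ifnb1 transcription, as well as AP-1, the family of FOS and JUN dimers to which FRA-1 (encoded by Fosl1) belongs.

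The promoters that carried a FRA-1 peak are shown first, because they were the only places where a peak met the annotated promoter of a listed gene. Promoter windows, spanning 250 bases before to 50 bases after a start site, were given by RefSeq (GRCm38.p6) for 30 of the 34 genes. Peaks overlapped the windows of 2 genes, each in 1 of 9 replicates. Isg15 encodes a ubiquitin-like modifier, and Irf7 encodes the regulator that amplifies interferon production. The 250 bases before each start site are given 5′ to 3′ on the strand of the gene (both genes lie on the minus strand), at chr4:156200819-156201068 for Isg15 and chr7:141266425-141266674 for Irf7. Capitals mark the ISRE core letters GAAANNGAAA, which occur 3 times in overlap before Isg15, the first of them starting 78 bases upstream. The Irf7 sequence holds no such letters.
Isg15: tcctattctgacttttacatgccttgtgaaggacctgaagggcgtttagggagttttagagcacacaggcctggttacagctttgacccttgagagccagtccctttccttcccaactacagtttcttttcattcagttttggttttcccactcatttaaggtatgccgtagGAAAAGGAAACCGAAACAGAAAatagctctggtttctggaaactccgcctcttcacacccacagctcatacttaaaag
Irf7: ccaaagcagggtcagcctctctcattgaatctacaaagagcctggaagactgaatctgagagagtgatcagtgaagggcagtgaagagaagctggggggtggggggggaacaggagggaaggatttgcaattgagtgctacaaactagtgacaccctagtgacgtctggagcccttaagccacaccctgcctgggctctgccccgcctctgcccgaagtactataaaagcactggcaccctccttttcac

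The peak at Isg15 came from LPS replicate 2 and covered the bases from 159 to 459 before the start site, so it did not reach the ISRE letters. Its score was 63.8, which placed it at percentile 3.45 of the peaks of that replicate. The peak at Irf7 came from LPS replicate 1, covered the bases from 33 to 225 before the start site and had a score of 77.5, at percentile 13.0. Both peaks therefore had low scores within their own replicates.

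Sequence letters were compared with those of all promoters. ISRE core letters on either strand (GAAANNGAAA or TTTCNNTTTC) were present in 13 of the 37 promoter windows of the listed genes (35.1%), against 713 of 21262 windows of all protein-coding genes (3.35%). AP-1 core letters (TGANTCA, which read the same on both strands) were present in 5 of the 37 windows (13.5%), against 6.99% of all windows. The latter were the windows of Gbp2, Oas3, Ifi35, Rsad2 and Ifit3, none of which overlapped a FRA-1 peak in any replicate. A match of letters is a description of the sequence and does not show that a factor was bound.

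The number of peaks differed between replicates and conditions over the whole genome. Unstimulated replicates had 20981 to 28314 peaks, LPS replicates 39728 to 63010 and AC replicates 31501 to 79474. The smallest peak was 104 to 116 bp wide in 4 replicates (unstimulated replicate 3, LPS replicates 1 and 3, and AC replicate 3, hereafter the narrow class) and 158 to 172 bp in the remaining 5 (the wide class). The tables hold scores and no read counts, so that the depth is unknown. Scores were not normalised between replicates, so their height is comparable only through the percentile among the peaks of the same replicate.

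Within 20 kb, FRA-1 peaks near interferon response genes were about as frequent as near other genes. A peak was present in at least 1 replicate for 29 of 34 genes in unstimulated macrophages (85.3%, against 76.3% of 19265 other protein-coding genes within the same range of lengths), 32 genes after LPS (94.1%, against 91.9%) and 32 genes after AC (94.1%, against 92.8%). With a peak required in at least 2 replicates of a condition, the numbers were 13 genes unstimulated (38.2%, against 39.9%), 24 after LPS (70.6%, against 71.2%) and 23 after AC (67.6%, against 67.1%). Among genes within 50% of the length of each listed gene, the shares with a peak in at least 1 replicate were 75.4%, 91.8% and 92.7%. The share in unstimulated macrophages rested on unstimulated replicate 1, as leaving it out reduced the number from 29 to 19 of the 34 genes (63.7% of the other genes). By the gene column of the deposited tables alone, which assigns fewer peaks to genes, 8 of the listed genes had a peak unstimulated (23.5%, against 13.3% of the other genes), 10 after LPS (29.4%, against 25.2%) and 13 after AC (38.2%, against 24.0%), so by that assignment their shares were above those of the other genes. Genes were matched to that column by identical symbol, so a gene named otherwise there was not counted.

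Taken by replicate, 20, 12 and 13 of the 34 genes had a peak in the 3 unstimulated replicates, 25, 21 and 26 in the LPS replicates, and 20, 18 and 29 in the AC replicates. The LPS replicates lay above all unstimulated replicates, whereas the AC replicates overlapped both conditions. The other genes moved alike, with 43.9%, 37.4% and 48.7% unstimulated, 65.3%, 57.7% and 77.5% after LPS, and 59.0%, 51.3% and 81.5% after AC. With every replicate cut to an equal number of top-scoring peaks, 28 genes had an unstimulated peak (71.3% of the other genes). Such peaks were present for 24 genes after LPS (68.4%) and 21 after AC (71.7%), so LPS no longer exceeded unstimulated by this count. With at least 2 replicates required, the numbers were 10 unstimulated, 13 after LPS and 10 after AC (34.5%, 39.8% and 36.6%). These counts are per condition and not per replicate.

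**Figure D1:**
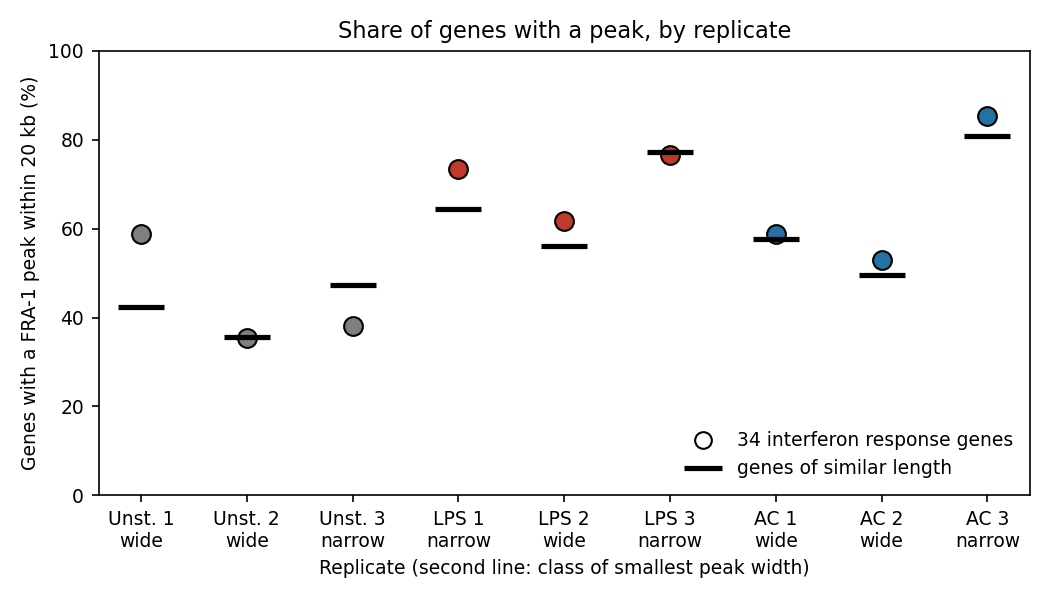
Share of the 34 interferon response genes with a FRA-1 peak within 20 kb (circles, in %) and mean share of protein-coding genes of similar length (bars) in each of the 9 replicates, with the width class of the replicate under its name. The circles lie between 35.3% and 85.3% and track the bars, with the widest gap in unstimulated replicate 1, at 58.8% against 42.3%.

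The comparison of conditions gene by gene asked whether the number of peaks in a window separated the replicates completely. More peaks in every LPS than in every unstimulated replicate were found for 1 of 34 genes, Ifnar2, against 8.14% of the other genes. No listed gene had more peaks in every unstimulated than in every LPS replicate (0.176% of the other genes), more in every AC than in every unstimulated replicate (5.52%), more in every unstimulated than in every AC replicate (0.176%), more in every LPS than in every AC replicate (2.07%) or more in every AC than in every LPS replicate (1.24%). A gene by gene test could not go below p = 0.1 with 3 replicates against 3 (exact permutation test, two-sided), and the comparisons share their replicates. The count for LPS over unstimulated depended on single replicates, being 7 genes without LPS replicate 2 (23.8% of the other genes) and 4, 2 and 3 genes without unstimulated replicates 1, 2 and 3, respectively (12.0%, 10.8% and 14.4% of the other genes).

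**Figure D2:**
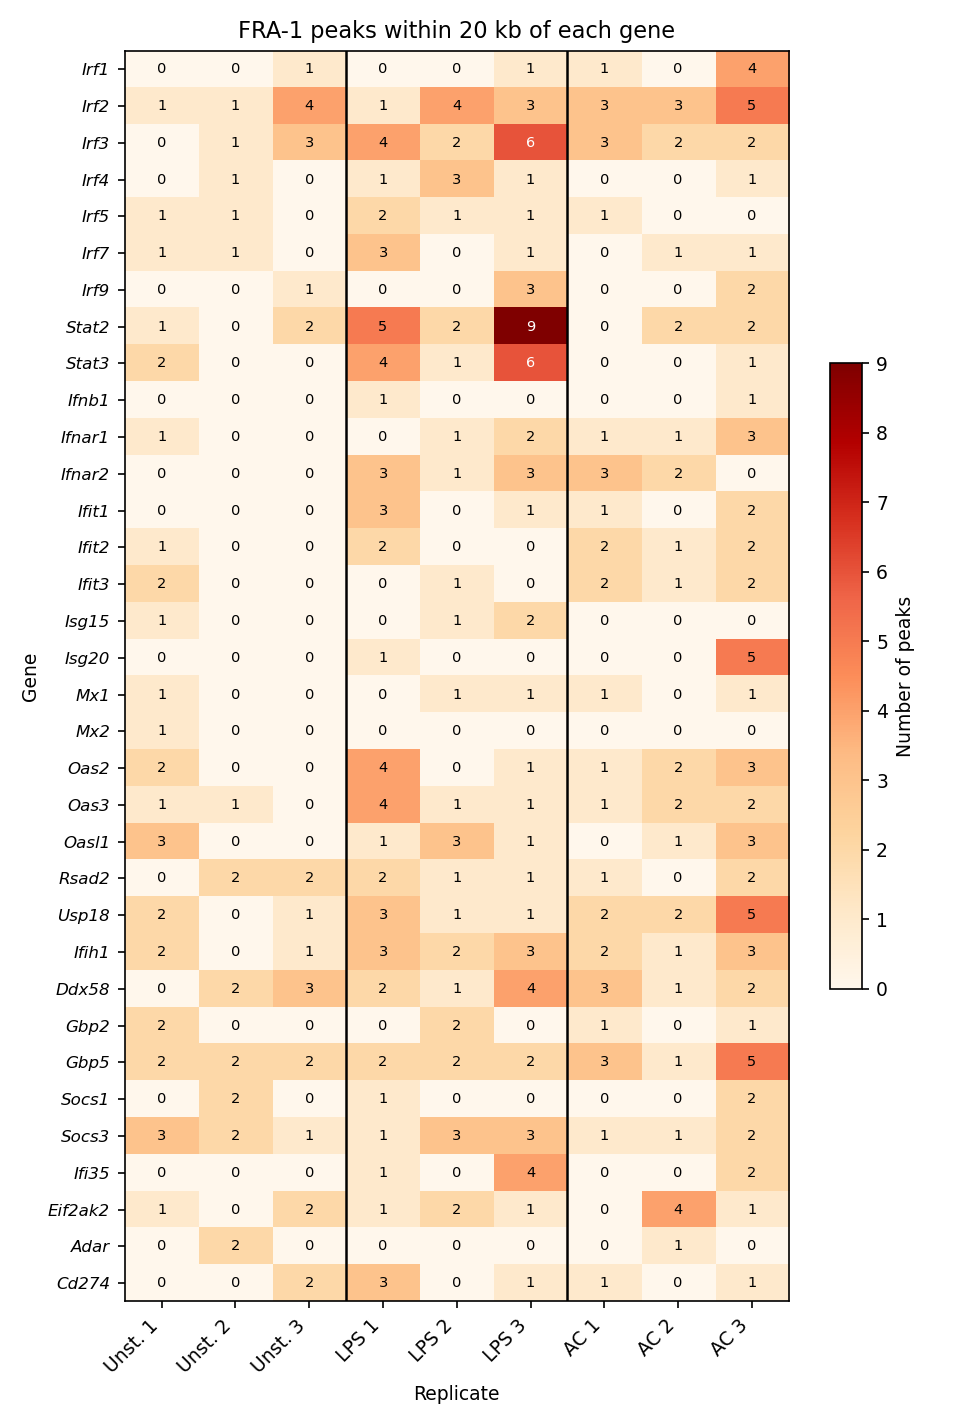
Number of FRA-1 peaks within 20 kb of each of the 34 genes (vertical axis) in each of the 9 replicates (horizontal axis, colour and printed number give the number of peaks). All 34 genes have a peak in at least 1 replicate, and Irf2, Gbp5 and Socs3 have one in all 9.

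The total over the 9 replicates ranged from 1 peak at Mx2 to 25 peaks at Irf2, the longest gene of the list, with a median of 8. Ranked among genes of similar length, by the percentage of them with the same or a smaller total, the totals had a median percentile of 56.6. Equal totals raise this percentile, so that Irf1, with 7 peaks against a median of 7 among its similar genes, stood at 55.2. Irf3, with 23 peaks (percentile 99.5), Stat2, with 23 (percentile 97.1), Socs3, with 17 (percentile 96.8), and Gbp5, with 21 (percentile 94.6), were the 4 genes above percentile 90. At the lower end stood Mx2, with 1 peak (percentile 1.49), and Adar, with 3 peaks (percentile 4.45). Mx1 and Mx2, which encode dynamin-like antiviral GTPases, are annotated as transcribed pseudogenes in the reference, and the other 32 genes as protein-coding.

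Most of this binding did not recur at the same place. Of the 270 regions, 237 (87.8%, against 89.7% of all regions) had a peak in 1 replicate only. A region is called shared here when at least 2 replicates of 1 condition had a peak in it, which held for 27 regions (10.0%, against 7.79% of all regions). Shared regions were found at 16 of 34 genes (47.1%, against 46.8% of the other genes). All 27 were shared by LPS replicates, 4 of them also by unstimulated and 10 by AC replicates.

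Regions bound in at least 2 of the LPS replicates but not in the unstimulated ones were found at 12 genes (35.3%, against 30.5% of the other genes), in 17 regions. The opposite pattern, with at least 2 unstimulated and no LPS replicates, was found at 0 genes (against 0.644%). At least 2 AC and no unstimulated replicates had a peak in a region of 2 genes, Ifnar2 and Ddx58 (5.88%, against 6.57%). Of the 17 regions, 14 had their LPS peaks in LPS replicates 1 and 3 only, which both belong to the narrow class. The part of the peak width in these counts was not tested. When every replicate was reduced to its 20981 highest-scoring peaks, 13 of the 27 shared regions remained shared. Those lost were all 4 regions of Stat3, both of Ifnar2, the regions of Irf4 and Irf7, the LPS regions of Gbp5 and Irf3, the upstream region of Socs3, and 1 region of Ddx58 and 2 of Stat2. Regions bound in at least 2 of the LPS replicates and not in the unstimulated ones then numbered 5, at Ddx58, Ifi35, Irf5, Rsad2 and Oas2. The Oas2 region was not among the 17, since it had a peak in unstimulated replicate 1 (percentile 10.5), which this reduction removed.

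**Figure D3:**
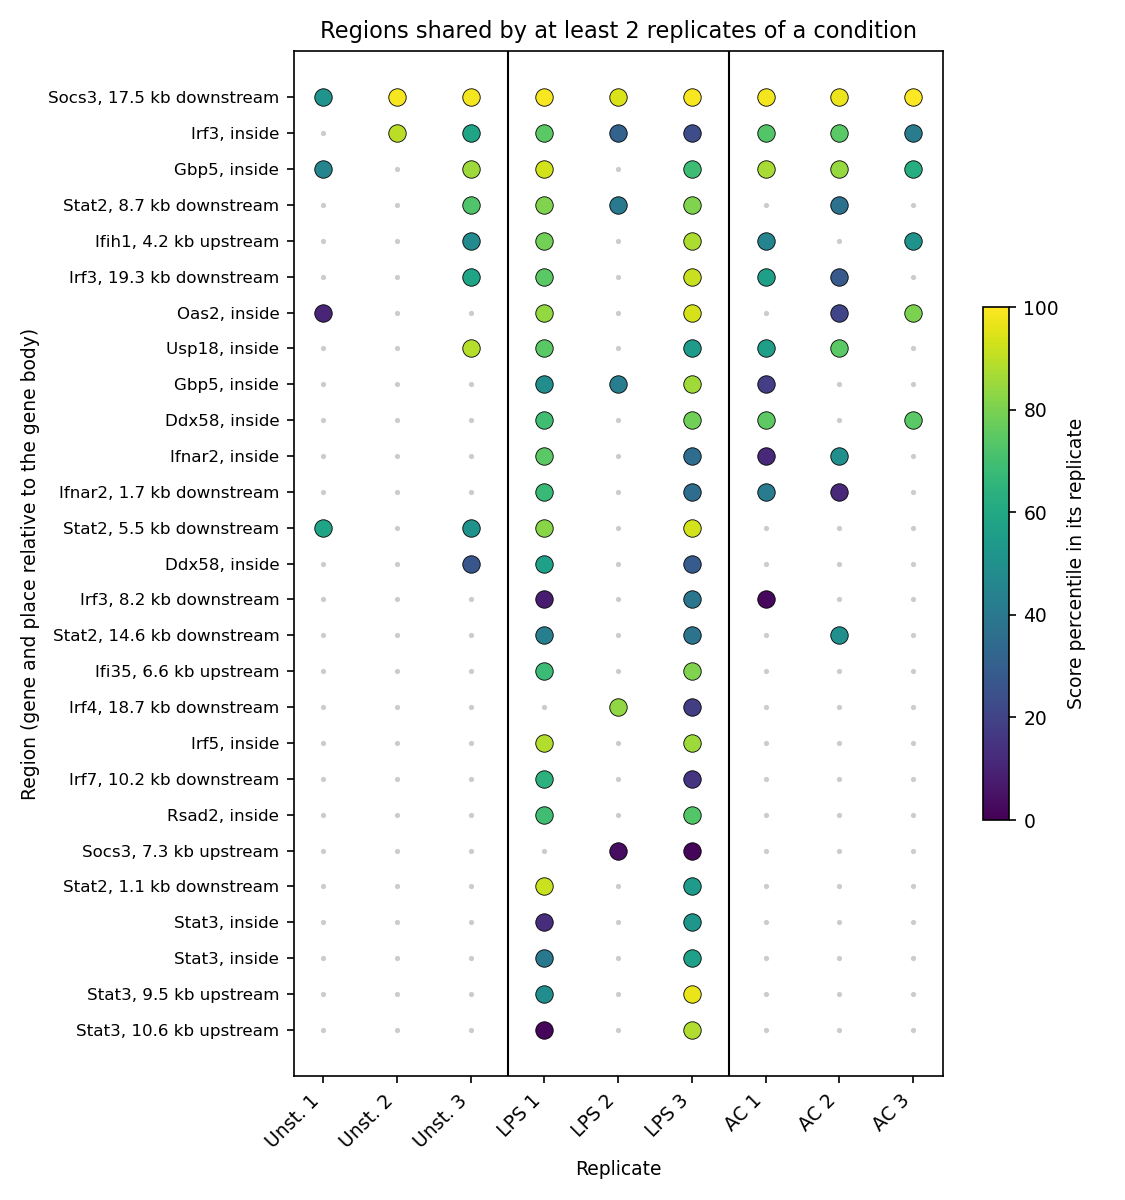
The 27 shared regions (vertical axis, named by gene and distance from the gene body) in the 9 replicates (horizontal axis), with the colour of each circle giving the percentile of the score in its replicate and a small grey dot the absence of a peak. The columns of LPS replicates 1 and 3 are the fullest, with peaks in 25 and 27 of the regions, and the region 17473 bp downstream of Socs3 has a peak in all 9 replicates.

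Among the regulators, 6 of 9 genes had a shared region (against 46.8% of the other genes). The same 6 of 9 had a region bound in at least 2 LPS replicates and in no unstimulated replicate (against 30.5%). No test was made of these shares, and the other genes were not matched to the lengths of the 9. With equal numbers of peaks per replicate, Irf5 was the only regulator that kept such a region. Irf3 encodes the factor that turns on Ifnb1 after TLR4 or RNA sensing. Its window held 0, 1 and 3 peaks in the unstimulated, 4, 2 and 6 in the LPS, and 3, 2 and 2 in the AC replicates, so that the LPS replicates overlapped the unstimulated ones. The most recurrent region of the gene lay inside it, at chr7:44998937-44999327 and centred 1484 bp after a start site, and had a peak in 8 of 9 replicates. Scores there were 220 and 151 in unstimulated replicates 2 and 3 (percentiles 89.7 and 58.4), 179, 107 and 135 in the LPS replicates (percentiles 74.4, 31.0 and 23.0), and 163, 175 and 94.2 in the AC replicates (percentiles 72.9, 74.3 and 41.2). This region was thus present with and without stimulus. The region at chr7:45022176-45022588, 19328 bp downstream of the gene, had peaks in unstimulated replicate 3, LPS replicates 1 and 3, and AC replicates 1 and 2, with scores of 151, 179, 365, 130 and 112 (percentiles 58.4, 74.4, 91.6, 56.1 and 27.6). The third, at chr7:45011006-45011345 within the neighbouring gene Scaf1, had peaks in LPS replicates 1 and 3 (scores 72.6 and 162, percentiles 8.04 and 39.1) and AC replicate 1 (score 55.7, percentile 2.05), and in no unstimulated replicate.

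Stat2 encodes a signal transducer of the type I interferon receptor. Its window held 1, 0 and 2 peaks unstimulated, 5, 2 and 9 after LPS, and 0, 2 and 2 after AC. LPS replicates 1 and 3 were higher than any other replicate, and LPS replicate 2 equalled unstimulated replicate 3. All 4 shared regions of the gene lay downstream of it. The nearest, at chr10:128293915-128294181 and 1062 bp beyond the gene end, had peaks in LPS replicates 1 and 3 alone (scores 291 and 193, percentiles 92.1 and 54.5). The region at chr10:128298320-128298493 had scores of 141 and 151 in unstimulated replicates 1 and 3 (percentiles 58.5 and 50.4) and of 222 and 385 in LPS replicates 1 and 3 (percentiles 82.1 and 93.2). A further region, at chr10:128301513-128301684, was the only one at Stat2 with a peak in all LPS replicates (scores 210, 120 and 285, percentiles 81.0, 40.9 and 80.5), and it also had one in unstimulated replicate 3 (score 187, percentile 72.6) and AC replicate 2 (score 126, percentile 37.6). The farthest of them, at chr10:128307409-128307567, lay within the neighbouring gene Pan2 and had peaks in LPS replicates 1 and 3 and AC replicate 2 (percentiles 42.9, 37.9 and 49.9).

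Stat3 encodes the transducer of signals from the IL-6 family and IL-10. It had 2, 0 and 0 peaks unstimulated, 4, 1 and 6 after LPS, and 0, 0 and 1 after AC, and its groups overlapped because LPS replicate 2 lay below unstimulated replicate 1. Its 4 shared regions had peaks in LPS replicates 1 and 3 and in no other replicate. A pair of them lay inside the gene, at chr11:100909378-100909590 (scores 77.5 and 190, percentiles 13.0 and 52.5) and chr11:100918109-100918318 (scores 118 and 207, percentiles 40.4 and 56.3). The other pair lay 9460 and 10648 bp upstream, at chr11:100949054-100949175 (scores 136 and 448) and chr11:100950242-100950432 (scores 56.8 and 344). LPS replicate 3 had the higher score at each of them, and the upstream pair reached percentiles 96.8 and 88.2 in that replicate against 49.0 and 1.24 in LPS replicate 1. With equal numbers of peaks per replicate, these 4 regions kept a peak in 0, 0, 1 and 1 LPS replicates, so none remained shared.

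The remaining regulators with a shared region were Irf4, Irf5 and Irf7. Irf4, a factor of lymphocytes and alternatively activated macrophages, had a region 18732 bp downstream at chr13:30785713-30785940, with peaks in LPS replicates 2 and 3 (scores 187 and 119, percentiles 83.4 and 17.8). Irf5, which acts downstream of Toll-like receptors, had a region within its body that also lay in Tnpo3, at chr6:29540843-29540958, with high scores in LPS replicates 1 and 3 (262 and 317, percentiles 88.5 and 85.3). At Irf7 the shared region lay 10212 bp downstream within Phrf1, at chr7:141252722-141252971, with scores of 149 and 112 in LPS replicates 1 and 3 (percentiles 63.8 and 15.6). None of these 3 regions had a peak in an unstimulated or AC replicate. By total peaks in the window, Irf4 had 0, 1 and 0 unstimulated, 1, 3 and 1 after LPS, and 0, 0 and 1 after AC. The corresponding numbers were 1, 1 and 0, then 2, 1 and 1, then 1, 0 and 0 for Irf5. Irf7 had 1, 1 and 0 unstimulated, 3, 0 and 1 after LPS, and 0, 1 and 1 after AC. The groups of all 3 genes overlapped.

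Irf1, Irf2 and Irf9 had no shared region. Irf1, an activator induced by interferon gamma, had 7 peaks over the 9 replicates, of which 4 were in AC replicate 3. Irf2, its antagonist, had a peak in all 9 replicates, with 1 to 5 in each, and Irf9, a DNA-binding factor that acts with STAT2, had 6 peaks in 3 replicates. At each of these genes the peaks of the replicates of a condition lay at different places.

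At the ligand and receptor genes, shared binding was limited to Ifnar2. This gene had 0, 0 and 0 peaks unstimulated, 3, 1 and 3 after LPS, and 3, 2 and 0 after AC, and was the single listed gene whose LPS replicates all exceeded the unstimulated ones (exact permutation test, two-sided, p = 0.1). The AC replicates overlapped both conditions, as AC replicate 3 had no peak although it had the most peaks of all replicates. Both shared regions had peaks in LPS replicates 1 and 3 and AC replicates 1 and 2. The region inside the gene, at chr16:91397031-91397390, had scores of 179 and 152 after LPS (percentiles 74.4 and 35.5) and of 73.1 and 134 after AC (percentiles 11.5 and 49.9). The second, 1749 bp beyond the gene within Il10rb, at chr16:91407338-91407720, had scores of 159 and 149 after LPS (percentiles 67.2 and 35.2) and of 114 and 82.6 after AC (percentiles 41.3 and 11.3). Il10rb encodes a chain of the receptors for IL-10 and interferon lambda. When each replicate was held to the same number of peaks, Ifnar2 no longer separated LPS from unstimulated replicates.

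The other receptor chain gene, Ifnar1, had 9 peaks in 6 replicates, from 0 to 3 in each. Ifnb1, which encodes interferon beta, had 2 peaks, of which 1 was in LPS replicate 1 and 1 in AC replicate 3. No region was shared at either gene.

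Both genes for cytosolic RNA sensors had a shared region. Ddx58, encoding RIG-I, had 0, 2 and 3 peaks unstimulated, 2, 1 and 4 after LPS, and 3, 1 and 2 after AC, with overlap of all conditions. Its region at chr4:40214289-40214539, inside the gene, had peaks in LPS replicates 1 and 3 (scores 173 and 274, percentiles 69.5 and 78.5) and AC replicates 1 and 3 (scores 170 and 141, percentiles 75.0 and 74.3), and in no unstimulated replicate. The second region inside the gene, at chr4:40208134-40208250, had scores of 137 and 136 in LPS replicates 1 and 3 (percentiles 56.4 and 28.9) and of 107 in unstimulated replicate 3 (percentile 26.7). Ifih1 encodes MDA5, the sensor of long double-stranded RNA. It had 2, 0 and 1 peaks unstimulated, 3, 2 and 3 after LPS, and 2, 1 and 3 after AC, so unstimulated replicate 1 equalled LPS replicate 2. Its shared region, 4217 bp upstream at chr2:62650472-62650646, had peaks in 5 replicates, with scores of 146 in unstimulated replicate 3 (percentile 47.3), 196 and 337 in LPS replicates 1 and 3 (percentiles 78.6 and 87.6), and 125 and 108 in AC replicates 1 and 3 (percentiles 45.1 and 50.5). The percentiles of this region were highest in LPS replicates 1 and 3, and LPS replicate 2 had no peak there.

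Of the 16 antiviral effectors, 5 had a shared region (against 46.8% of the other genes), and 2 of these, Oas2 and Oas3, had the same one. Gbp5 encodes a guanylate-binding protein that supports inflammasome activity. Its window held 2 peaks in each of the 6 unstimulated and LPS replicates and 3, 1 and 5 in the AC replicates, so the number of peaks did not distinguish the conditions. The region at chr3:142500176-142500355, inside the gene and centred 3331 bp after a start site, had peaks in all 3 LPS replicates (scores 136, 122 and 324, percentiles 49.0, 42.0 and 85.9), in AC replicate 1 (score 87.6, percentile 18.1) and in 0 of 3 unstimulated replicates. It is described for this pattern, and with equal numbers of peaks per replicate it kept a peak in 1 LPS replicate. Gbp5 was the 1 gene of 34 with a region bound in all LPS and no unstimulated replicates (2.94%, against 2.11% of the other genes). The neighbouring region at chr3:142499539-142499723 was bound in 7 of 9 replicates irrespective of the condition, with scores of 128 and 225 in unstimulated replicates 1 and 3 (percentiles 45.4 and 85.4), 311 and 239 in LPS replicates 1 and 3 (percentiles 93.3 and 69.0), and 193, 199 and 115 in the AC replicates (percentiles 86.9, 84.1 and 62.0).

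Oas2 and Oas3, which encode synthetases of the 2′-5′ oligoadenylates that activate RNase L, lie next to each other, and their windows had 5 regions in common. They shared 1 recurrent region, at chr5:120735918-120736274 inside Oas2 and 16824 bp downstream of Oas3. Its percentiles were highest in LPS replicates 1 and 3 (223 and 386, percentiles 83.9 and 93.4), against 80.0 in unstimulated replicate 1 (percentile 10.5) and 94.4 and 147 in AC replicates 2 and 3 (percentiles 20.7 and 80.2). In all, Oas2 had 2, 0 and 0 peaks unstimulated, 4, 0 and 1 after LPS, and 1, 2 and 3 after AC. Oas3 had 1, 1 and 0 unstimulated, 4, 1 and 1 after LPS, and 1, 2 and 2 after AC. The conditions overlapped at both genes.

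Rsad2 encodes viperin, which forms a chain-terminating nucleotide. It had 0, 2 and 2 peaks unstimulated, 2, 1 and 1 after LPS, and 1, 0 and 2 after AC. Its shared region inside the gene, at chr12:26444439-26444554, had peaks in LPS replicates 1 and 3 alone (scores 173 and 255, percentiles 69.5 and 72.9), so the unstimulated peaks of this gene lay elsewhere. Ifi35, an interferon-induced leucine zipper protein gene, had 0, 0 and 0 peaks unstimulated, 1, 0 and 4 after LPS, and 0, 0 and 2 after AC. The shared region of Ifi35, 6646 bp upstream at chr11:101441653-101441766, was also confined to LPS replicates 1 and 3 (scores 167 and 286, percentiles 68.0 and 80.5).

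The other 11 effectors had no shared region, among them genes often used to follow an interferon response. Ifit1, Ifit2 and Ifit3, encoding proteins that bind viral RNA, had 7, 8 and 8 peaks over the 9 replicates, and the windows of Ifit2 and Ifit3 had 4 regions in common. Isg15 had 4 peaks in 3 replicates. The exonuclease gene Isg20 had 6 peaks, 5 of them in AC replicate 3, and Oasl1 had 12 peaks in 6 replicates. Eif2ak2, the gene for the kinase PKR, had 12 peaks in 7 replicates, whereas Adar, the gene for an RNA-editing enzyme, had 2 peaks in unstimulated replicate 2 and 1 in AC replicate 2, and none after LPS. Mx1 and Gbp2 had 5 and 6 peaks, respectively. The 1 peak at Mx2 was in unstimulated replicate 1.

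The feedback genes included the most recurrent region of the list. Socs3 encodes an inhibitor of cytokine signalling through JAK and STAT3. Its window held 3, 2 and 1 peaks unstimulated, 1, 3 and 3 after LPS, and 1, 1 and 2 after AC, with overlap of the conditions. The region at chr11:117948426-117948606, 17473 bp downstream of the gene, had a peak in all 9 replicates, which was found at 1 of 34 listed genes (2.94%, against 4.02% of the other genes). Scores were 141, 342 and 419 in the unstimulated replicates (percentiles 51.3, 98.6 and 98.3), 483, 250 and 512 in the LPS replicates (percentiles 99.1, 94.5 and 98.9), and 345, 308 and 324 in the AC replicates (percentiles 98.4, 96.9 and 99.3). Apart from unstimulated replicate 1, the peak thus ranked near the top of every replicate. The second shared region, 7279 bp upstream at chr11:117977615-117977928, was of the opposite kind, with peaks in LPS replicates 2 and 3 at percentiles of 3.34 and 1.36 only (scores 63.7 and 61.8).

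Usp18 encodes the protease that removes ISG15 from proteins and restrains signalling at the IFNAR2 chain. It had 2, 0 and 1 peaks unstimulated, 3, 1 and 1 after LPS, and 2, 2 and 5 after AC, with overlap of the conditions. A region inside the gene and in the overlapping gene model Gm44148, at chr6:121260780-121261030, had peaks in unstimulated replicate 3 (score 244, percentile 88.8), LPS replicates 1 and 3 (scores 179 and 196, percentiles 74.4 and 54.8) and AC replicates 1 and 2 (scores 130 and 175, percentiles 56.1 and 74.3). The highest of these percentiles was in an unstimulated replicate. Socs1, which encodes another inhibitor of JAK kinases, had 5 peaks in 3 replicates and Cd274, the gene for the checkpoint ligand PD-L1, had 8 peaks in 5 replicates, with no shared region at either.

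The shared regions were mostly distant from the start sites of the genes, as were those of other genes. Of 28 pairs of a gene and a shared region, 12 lay inside the gene body and 16 outside it, of which 5 lay within another gene. The 26 shared regions with a known start site had a median distance of 21088 bp, against 11616 bp for 7627 shared regions of the other genes, and no test was made of this difference. None of the 26 lay within 1000 bp (against 4.58%) and 1 lay within 2000 bp, namely that of Irf3 (3.85%, against 10.6%). With or without sharing, 8 of 247 regions of the listed genes lay within 1000 bp of a start site (3.24%, against 4.20% for the other genes). A peak within 2 kb of a start site was present for 2 of 30 genes unstimulated (6.67%, against 11.7% of the other genes), 6 after LPS (against 22.5%) and 8 after AC (26.7%, against 21.7%).

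**Figure D4:**
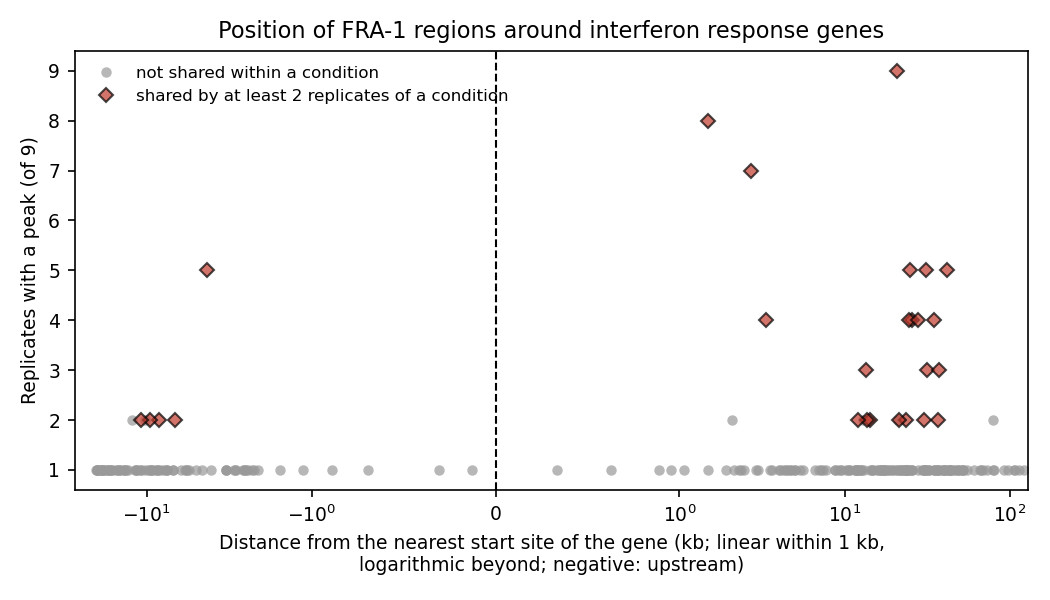
Distance of each region from the nearest start site of its gene (horizontal axis, in kb, linear within 1 kb and logarithmic beyond, negative upstream) against the number of replicates with a peak (vertical axis, of 9). Shared regions (diamonds) lie at 1484 bp or farther, and the other regions (circles) are mostly found in 1 replicate.

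By replicate, 25 of the 27 shared regions had peaks in LPS replicates 1 and 3. Of these 25 regions, 9 also had a peak in unstimulated replicate 3 and 6 in AC replicate 3, the other replicates of the narrow class, while 14 had one in AC replicate 1 or 2 of the wide class.

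A list of 70 further genes of the interferon pathway was read in the same way. The reference gave 69 of them as protein-coding genes, and 9 of their windows overlapped a window of the 34 genes, so the lists are not independent. Windows of neighbouring genes within this list can also overlap, so the same region may be counted at more than 1 gene. A peak was present in at least 1 replicate for 60 of the 69 genes unstimulated (87.0%, against 76.3% of the other genes), 63 after LPS (91.3%, against 91.9%) and 69 after AC (100%, against 92.8%). More peaks in every LPS than in every unstimulated replicate were found for 4 genes (5.80%, against 8.14%), namely Ifngr2, Ticam1, Herc6 and Ifna4. For AC over unstimulated there were also 4 genes (5.80%, against 5.52%), namely Ifngr2, Dhx58, Nmi and Znfx1, and for AC over LPS there were 2 (2.90%, against 1.24%), whereas both counts were 0 among the 34 genes. LPS over AC was found for 1 gene, Ticam1 (against 2.07% of the other genes). A shared region was found at 37 genes (53.6%, against 46.8%), and regions bound in at least 2 of the LPS replicates but in none of the unstimulated ones at 22 genes (31.9%, against 30.5%). Slfn5 was the 1 gene of this list with a region bound in all 3 LPS and no unstimulated replicates (against 2.11% of the other genes). A region with a peak in all 9 replicates was found at 4 genes (against 4.02%), namely Ifitm1, Ifitm2, Trim30a and Pias1.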

How the data were processed

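FRA-1 ChIP-seq was carried out on 3 unstimulated, 3 LPS and 3 AC samples, and pooled inputs were not used here. Per the submitters' processing notes, BWA 0.7.14, bedtools and mm10 (GRCm38) were named, and the peak caller is not given in the sources used here. The authors deposited 1 peak table per condition, holding a score for each replicate and segment. Its scale is not stated, the lowest value was 50.01, and scores were only ranked within a replicate. The depth is unknown.

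Duplicate rows were dropped, adjoining segments of equal score were joined into peaks, and peaks that touched or overlapped across the 9 replicates were combined into regions. Genes were matched to RefSeq (GRCm38.p6) with 20 kb flanks. The deposited gene column, which named 20 of the 34 genes, added 0 peaks outside these windows. Exact permutation tests (Python 3.11.15, scipy 1.17.1) were used for single genes, after checks on simulated data. They compare the mean number of peaks between conditions, with the samples labelled as replicates as units.

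The genes and lists were chosen with earlier results of these data known, so counts over them carry no p-value. Values in every replicate are given for genes with a shared region or with replicates that did not overlap between conditions. Alternatives covered flanks, scores, equal peak numbers and left-out replicates.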

Additional observations from a re-analysis of the deposited data

How the results depend on the processing

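The tables hold peak calls without read counts, so a missing peak is not evidence that FRA-1 was absent, and the precision of single calls is unknown. Of 102 alternative counts, 56 stayed within 1.5 times the reported value and 46 did not. No paired analysis was possible because no label ties a column of scores to a mouse.

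Each number of genes is followed by the share of the other genes under the same setting. The cause of each change was not tested. With 5 kb flanks, 19 genes had an unstimulated peak (other genes 51.8%), 7 and 12 had peaks in at least 2 unstimulated or AC replicates (20.1% and 37.6%), and 1 had more peaks in every LPS than AC replicate (1.51%). With 50 kb flanks, 23 genes had peaks in at least 2 unstimulated replicates (70.5%), 4 had more in every AC than unstimulated replicate (9.15%) and 1 more in every LPS than AC replicate (2.03%). Within 2 kb of a start site, 2, 6 and 8 of 30 genes had an unstimulated, LPS or AC peak (11.7%, 22.5% and 21.7%), 1, 1 and 1 in at least 2 replicates (1.26%, 6.35% and 3.10%), and 0 had more in every LPS than unstimulated replicate (0.492%). By the deposited gene column alone, 8, 10 and 13 genes had a peak (13.3%, 25.2% and 24.0%), 2, 4 and 3 in at least 2 replicates (1.73%, 7.73% and 3.92%), and 0 had more in every LPS than unstimulated replicate (0.426%). This was the setting in which the listed genes stood above the other genes in all 3 conditions, by both counts. It matches genes by identical symbol, and the part of symbols that differ from the reference was not tested. A score of at least 100 left 14 genes with peaks in at least 2 AC replicates (51.6%). Equal numbers of peaks left 13 and 10 genes with peaks in at least 2 LPS or AC replicates (39.8% and 36.6%), 21 with an AC peak (71.7%) and 0 with more in every LPS than unstimulated replicate (1.69%). Requiring the same region in at least 2 replicates, an alternative chosen after seeing the data, gave 4 unstimulated and 9 AC genes (11.6% and 21.4%).

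Leaving out 1 replicate at a time gave 19 to 26 genes with an unstimulated peak (61.5% to 67.2%), 6 to 7 and 13 to 18 with peaks in at least 2 unstimulated or AC replicates (19.7% to 25.4% and 35.1% to 51.2%), 1 to 7 with more in every LPS than unstimulated replicate (10.4% to 23.8%), 0 to 5 for AC over unstimulated (7.20% to 17.2%) and 0 to 3 for LPS over AC (2.94% to 8.56%). The 5 genes for AC over unstimulated were found without unstimulated replicate 1 (8.48%), and the 3 genes for LPS over AC without LPS replicate 2.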
